A study of Homo sapiens with 93 samples.

Results

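The genes examined were the Janus kinases JAK1, JAK2, JAK3 and TYK2, the signal transducers and activators of transcription STAT3, STAT4, STAT5A, STAT5B and STAT6, and the inhibitor SOCS1. They were taken by their Ensembl gene identifiers from a table of H3K36me3 counts, and all 10 were present among its 14000 features. H3K36me3 is the trimethyl mark of histone H3 at lysine 36, measured here by CUT&Tag, in which an antibody (here polyclonal) directs a transposase to marked chromatin and the DNA it cuts is sequenced. The 93 samples were human lymphoblastoid cell lines, B cells immortalised by Epstein-Barr virus, with 1 library per line and no other treatment or genotype in the labels. Cultures in RPMI with 20% serum were grown in 4 batches, each of some 20 to 35 lines. For every assay 100000 cells were frozen, and libraries went through 14 PCR cycles. The labels do not give the batch of each line, so values within batches could not be computed. All libraries form 1 group, and a difference between libraries holds line, culture and technical differences together.

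Cytokine receptors of this pathway have no kinase of their own and carry Janus kinases on their inner tails. Once a cytokine brings the receptor chains together, the kinases phosphorylate the receptor and then the STAT proteins, which pair, enter the nucleus and bind DNA. SOCS1 is a target gene of the pathway that feeds back on it, by blocking the kinases and by directing signalling proteins to degradation. In B cells the pathway carries, among others, the signals of interleukin-4 through STAT6 and of interleukin-21 through STAT3. H3K36me3 is laid down by SETD2, which travels with elongating RNA polymerase, so the mark lies over the bodies of transcribed genes and is low at promoters. The values below are amounts of this mark and not of RNA, protein or signalling.

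The shallowest library held 2842955 counts, the median library 14883653 and the deepest 24325746. A feature had a median of 114 to 1022 counts depending on the library, and the median Pearson correlation of log2 CPM between 2 libraries was 0.97 across features, which are not independent replicates. CPM, the counts of a gene scaled to a common library total, were computed after TMM scaling, with factors that lay between 0.916 and 1.05. The cell type could not be checked against B cell or other markers, because the reference table carries no Ensembl identifier (0 matched) and the identity of the 10 genes came with their identifiers. In a bulk library, fewer cells with the mark at a gene and less mark per cell cannot be told apart.

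A pair of RefSeq start windows (build GRCh38.p14, 250 bases before to 50 after a start) is shown for the points at which sequence bears on these genes, namely the feedback inhibitor and the neighbours STAT5A and STAT5B. The SOCS1 window is chr16:11256155-11256454 on the minus strand, and its 10 capitals mark a match to the interferon-response element core (GAAA, any 2 bases, GAAA), which begins 113 bases before the start. The STAT5A window is chr17:42288248-42288547 on the plus strand, belongs to the third of 3 RefSeq starts, and its 123 capitals mark bases that also lie inside the RefSeq span of STAT5B.
SOCS1: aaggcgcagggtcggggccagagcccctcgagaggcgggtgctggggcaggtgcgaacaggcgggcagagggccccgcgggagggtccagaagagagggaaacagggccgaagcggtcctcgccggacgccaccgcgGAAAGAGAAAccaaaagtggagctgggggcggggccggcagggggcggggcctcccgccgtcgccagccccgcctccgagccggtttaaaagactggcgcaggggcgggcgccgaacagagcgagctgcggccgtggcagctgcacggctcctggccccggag
STAT5A: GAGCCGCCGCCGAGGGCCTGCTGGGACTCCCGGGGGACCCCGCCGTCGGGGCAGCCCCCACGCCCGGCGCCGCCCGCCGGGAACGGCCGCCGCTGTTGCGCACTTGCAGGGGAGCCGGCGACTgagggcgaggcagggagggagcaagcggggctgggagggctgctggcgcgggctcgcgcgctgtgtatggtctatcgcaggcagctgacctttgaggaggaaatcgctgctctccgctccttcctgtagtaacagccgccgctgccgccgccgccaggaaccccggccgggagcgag

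The 18 start windows of the 10 genes were searched for sequences that the factors of the pathway bind. Across them the GAS motif TTCNNNGAA, a general STAT binding sequence that is its own reverse complement, had no match, against 7.66% of the 35116 windows of all genes. The longer form preferred by STAT6 (TTC, any 4 bases, GAA) was found in 1 window, the first of STAT5A, against 6.44% of all windows. The interferon-response core was found in 1 window, that of SOCS1, against 3.57% of all windows. The windows were read on both strands, the longer form is its own reverse complement too, and a match is only a match of letters. The GC content was 74% in the SOCS1 window and 82% in that of STAT5B, against a median of 58.7% over all windows. The windows were not tied to the counts, since the counted intervals were not given in the sources used here.

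Among the kinases, JAK1, which serves the widest range of cytokine receptors, had 119 CPM in the lowest line, a median of 188 and 301 in the highest line, with a mean of 190 ± 42.9 CPM (SD, n = 93). JAK2, which serves the receptors of growth hormone, erythropoietin and thrombopoietin, had 83.5, 176 and 318 CPM as lowest, median and highest values and averaged 180 ± 34.1 CPM (SD, n = 93). Both genes thus had high amounts per gene in every line, with 537 counts or more for JAK1 and 227 or more for JAK2 in each library. The amounts of the kinases are not per length. JAK1 spans 234.518 kb and JAK2 145.559 kb, against 30.04 kb for TYK2 and 23.201 kb for JAK3. TYK2, which serves receptors of type I interferon and interleukin-12, had 92.7, 145 and 196 CPM and averaged 145 ± 20.9 CPM (SD, n = 93). JAK3, the kinase of the common gamma chain and known for its role in lymphocytes, had 54.9, 98.2 and 145 CPM and averaged 98.2 ± 18.1 CPM (SD, n = 93). The range of JAK3 overlapped that of each of the other 3 kinases. The spans in RefSeq are chr1:64833229-65067746 for JAK1 (ENSG00000162434.13), chr9:4984390-5129948 for JAK2 (ENSG00000096968.14), chr19:17824782-17847982 for JAK3 (ENSG00000105639.19) and chr19:10350533-10380572 for TYK2 (ENSG00000105397.14).

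Among the factors, STAT3, which answers interleukin-6 and interleukin-21, had the highest level, with 108, 188 and 285 CPM in its lowest, median and highest lines and 190 ± 42.7 CPM on average (SD, n = 93). STAT6, the factor of interleukin-4, had 65.1, 99.2 and 148 CPM and averaged 101 ± 14.6 CPM (SD, n = 93). STAT5A and STAT5B, closely related factors of interleukin-2, prolactin and growth hormone signals, had medians of 92.2 and 92.9 CPM. STAT5A ran between 62.9 and 124 CPM and averaged 92.1 ± 14.7 CPM (SD, n = 93), whereas STAT5B ran between 71.2 and 139 CPM and averaged 94.6 ± 12.2 CPM (SD, n = 93). STAT4, the factor of interleukin-12 and known for its role in T and NK cells, had 23.2, 38.2 and 69.9 CPM and averaged 39.2 ± 9.55 CPM (SD, n = 93). Every line of STAT4 lay below every line of STAT3 (23.2 to 69.9 against 108 to 285 CPM). The spans in RefSeq are chr17:42313324-42388442 for STAT3 (ENSG00000168610.14), chr2:191029576-191151596 for STAT4 (ENSG00000138378.19), chr17:42287439-42311943 for STAT5A (ENSG00000126561.16), chr17:42199177-42288370 for STAT5B (ENSG00000173757.10) and chr12:57095408-57111362 for STAT6 (ENSG00000166888.12). These amounts are per gene and not per length, and STAT4 spans 122.021 kb against 75.119 kb for STAT3.

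The inhibitor SOCS1 had the lowest amount of the 10 genes, with 1.53, 3.70 and 9.85 CPM in its lowest, median and highest lines and 3.93 ± 1.62 CPM on average (SD, n = 93). Its counts were between 5 and 154 with a median of 46, where those of the other 9 genes began at 82 or higher. SOCS1 is also a very short gene of 1.788 kb at chr16:11254417-11256204 (ENSG00000185338.6). Every line of SOCS1 lay below every line of the other 9 genes, and counting alone gives a coefficient of variation of 0.147 at its median count.

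**Figure D1:**
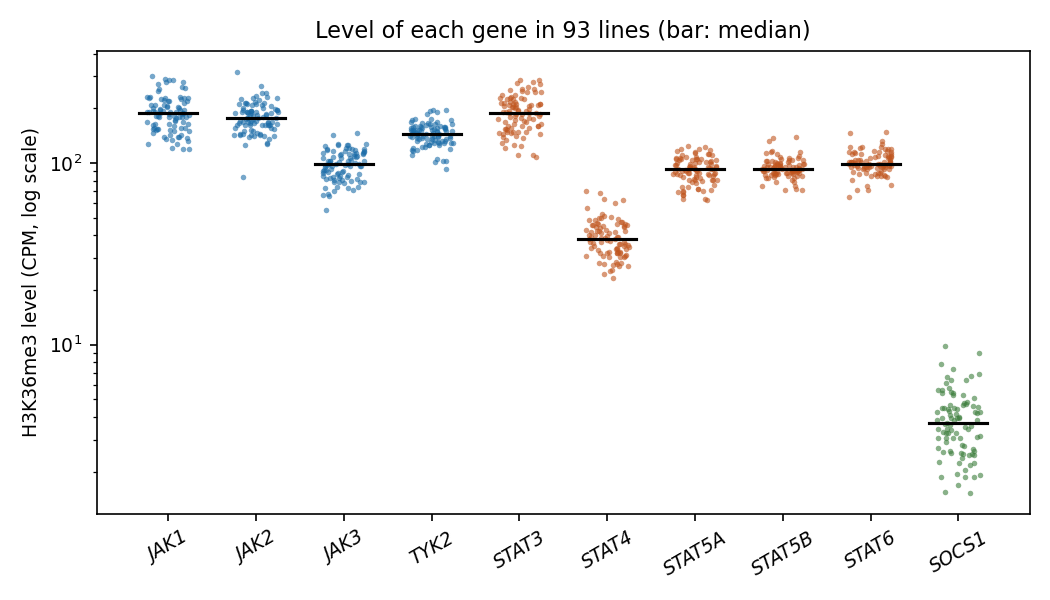
H3K36me3 level of each gene in CPM on a log scale, with 1 point per line and a bar at the median, kinases in blue, STAT factors in orange and SOCS1 in green. STAT4 (median 38.2 CPM) and SOCS1 (median 3.70 CPM) lie below the other 8 genes, whose medians run between 92.2 and 188 CPM.

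Against the median feature of the same library, 8 of the 10 genes stood higher in every one of the 93 lines. The median log2 difference was 2.19 for STAT3, 2.16 for JAK1, 2.08 for JAK2, 1.79 for TYK2, 1.23 for STAT6, 1.22 for JAK3, 1.15 for STAT5B and 1.13 for STAT5A. By mean level JAK1 and STAT3 stood at the 92.2 and 92.2 percentile of all features and STAT5A at the 75.3. STAT4 lay close to the median feature, at -0.15 log2, and above it in 33 of 93 lines. SOCS1 lay below it in every line, at -3.46 log2, and at the 4.96 percentile of all features. No test was made, since the lines form 1 group. The share of all features that stood above the median feature in every line is not given here, so the count of 8 has no background. These levels and percentiles are not adjusted for gene length, and JAK1 spans 234.518 kb.

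Features are not on one footing throughout the table, whose level and share of even counts shift along its rows. The order of the 10 genes in the table follows their RefSeq chromosome, read as text, and start. The share of even counts was taken over low counts only, the very lowest left out, and does not cover all counts of a stretch. Median counts of the genes other than SOCS1, which began at 541 for STAT4, lay above the counts used. In rows 3201 to 7700, which hold 7 of the 10 genes, the median feature was at 4.85 log2 CPM and 56% of these low counts were even. In rows 1 to 1900, with JAK1, the values were 5.74 and 50.6%, in rows 7801 to 8500, with STAT4, 5.91 and 51%, and in rows 9601 to 14000, with JAK2, 5.77 and 50.8%. The cause of these shifts was not tested, and levels of JAK1, JAK2 and STAT4 cannot be set beside those of the other 7 genes without this difference. Against the median of the 100 rows on each side, the same 8 genes stood higher in all 93 lines. The median differences were 2.67 log2 for TYK2, 2.58 for STAT3, 1.95 for JAK2, 1.89 for STAT6, 1.71 for JAK3, 1.66 for JAK1, 1.59 for STAT5B and 1.52 for STAT5A. STAT4 was at -0.63 log2 and above its neighbours in 1 of 93 lines, and SOCS1 was at -3.29 log2 and below them in all 93. The share of all features above their own neighbours in every line is not given here.

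**Figure D2:**
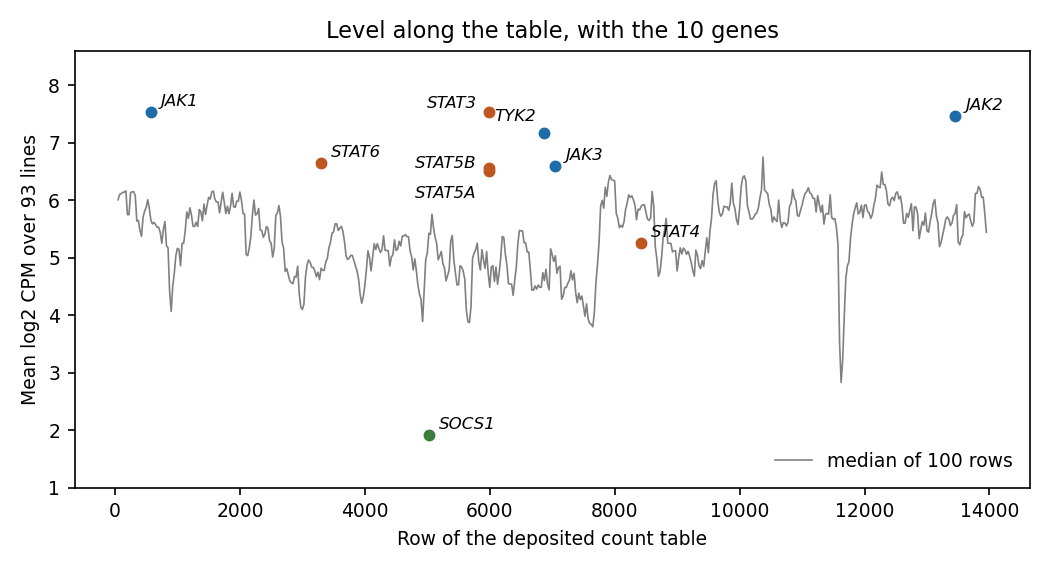
Mean log2 CPM over the 93 lines by row of the count table, with a grey line for the running median of 100 rows and a point for each gene. The grey line runs lower through rows 3201 to 7700 (median 4.85) than through rows 9601 to 14000 (median 5.77), and STAT4 and SOCS1 are the genes below it.

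Levels of different genes were set beside each other per kilobase of RefSeq span, and only for the 7 genes in rows 3201 to 7700. STAT6 was highest with a median of 6.22 CPM per kb over 93 lines, above TYK2 with 4.81, by a median of 0.40 log2 and in 92 lines. TYK2 stood above JAK3 (4.23 CPM per kb) by 0.18 log2 in 75 lines, and JAK3 above STAT5A (3.76 CPM per kb) by 0.20 log2 in 72 lines. STAT5A stood above STAT3 (2.51 CPM per kb) by 0.60 log2 in 90 lines. STAT3 and SOCS1 (2.07 CPM per kb) were neighbours in this order, with a median difference of 0.20 log2, an SD of 0.45 and STAT3 higher in 62 of 93 lines. STAT5B was lowest with 1.04 CPM per kb, below SOCS1 in 88 lines. The ranges of neighbours in the order overlapped in every case, and differences of TYK2 over JAK3, JAK3 over STAT5A and STAT3 over SOCS1 were smaller than their SD between lines. Per kb of RefSeq span SOCS1, lowest of the 10 per gene, lay inside the range of the factors. The counted interval was not given in the sources used here. If it differs from the RefSeq span, the values change, and most easily so for a gene of 1.788 kb. No background level per kb is given here.

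JAK2, JAK1 and STAT4 lie in other stretches of the table, with 1.21, 0.802 and 0.313 CPM per kb. The values of JAK1 and JAK2 depend on the span taken. From the RefSeq start nearest to the far end of the gene, chosen as an alternative after seeing the data, JAK1 had 1.41 CPM per kb over 133321 bases and JAK2 had 1.99 over 88417 bases, while STAT4 had 0.315. STAT5B had 1.20 CPM per kb and STAT6 had 6.67 by that measure, and the order of the 7 genes was not altered.

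The next question was which of the genes differed between lines by more than features of their level. Of 13915 features, 2586 (18.6%) had a dispersion above the trend with edgeR's goodness-of-fit test at an adjusted p under 0.05, fitted beside the library total and the dynamic range. The dynamic range is how far the top quintile of features stands above the bottom quintile in median log2 CPM, and ran between 4.25 and 5.07. By this test 3 of the 10 genes were called, namely SOCS1, JAK1 and STAT3. For SOCS1 the log2 ratio of own over trended dispersion was 1.37 (edgeR adjusted p = 3.18e-08), with a coefficient of variation of 0.412 and 6 lines over 2-fold from the median. For JAK1 the ratio was 0.83 (edgeR adjusted p = 2.75e-05) and for STAT3 it was 0.80 (edgeR adjusted p = 6.28e-05). Each of JAK1 and STAT3 had 7 lines over 1.5-fold from its median and 0 over 2-fold. STAT4 had the same 7 and 0 lines and was not called. These counts of lines use CPM without the covariates. Of all features, 36.5% had a line over 2-fold from their median. The coefficients of variation of JAK1 and STAT3 were 0.225 and 0.224, against a median of 0.206 over all features.

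The calls rested on the covariates. With 10 principal components in their place, the ratios of SOCS1, JAK1 and STAT3 were 0.29, 0.26 and 0.25 and none was called, whereas JAK2 was called at 0.51 (edgeR adjusted p = 0.0322). In the main test JAK2 had a ratio of 0.30 and an adjusted p of 0.233. With 5 components STAT3 and JAK2 were called and SOCS1 (0.44) and JAK1 (0.30) were not, and with no covariates SOCS1 alone was called. In the deeper 47 libraries STAT3 was at 0.25 and not called. Of the 13915 features tested, 2593 were called with 5 components, 3159 with no covariates and 1993 in the deeper 47 libraries. The number with 10 components is not given here, beyond lying within 1993 to 3159, the range over the alternatives with this test. The 1 gene called there thus has no exact background. JAK2 had 1 line over 2-fold from its median, which was the shallowest library of 2842955 counts, at 83.5 CPM.

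The other 6 genes had ratios below 0. They were -0.20 for JAK3, -0.24 for STAT4, -0.77 for STAT5A, -0.93 for STAT5B and -1.28 for both STAT6 and TYK2. STAT5B had the lowest coefficient of variation of the 10, 0.129, and neither STAT5B nor STAT5A had a line over 1.5-fold from its median. The share of all features without such a line is not given here. STAT4 had a coefficient of variation of 0.243, the highest after SOCS1, and its SD of log2 CPM was 0.22 with library total and dynamic range removed, against 0.34 without.

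**Figure D3:**
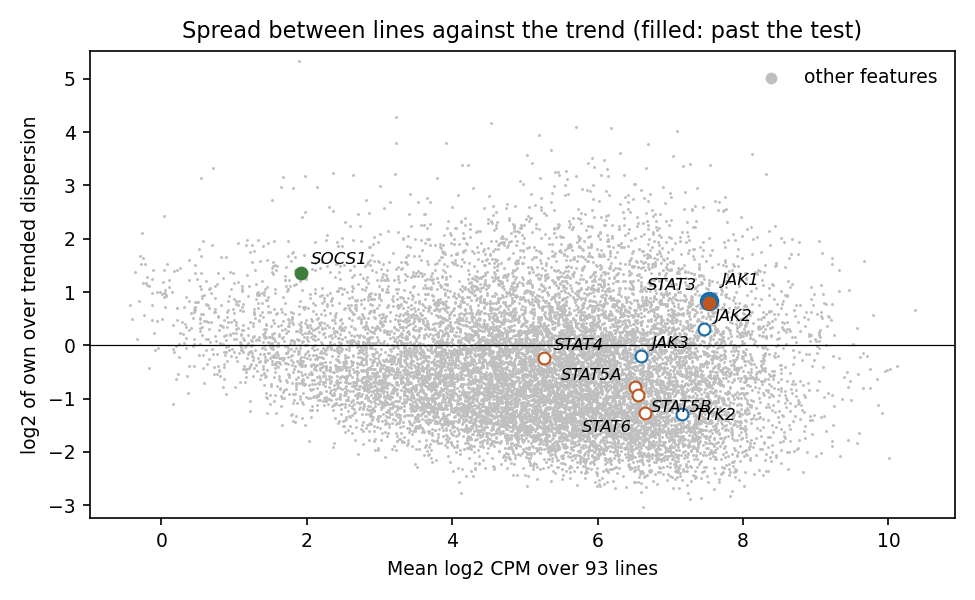
Log2 ratio of own over trended dispersion against mean log2 CPM for the tested features in grey and the 10 genes in colour, filled where the edgeR test called the gene. SOCS1 (1.37), JAK1 (0.83) and STAT3 (0.80) are filled, the last 2 lying on each other, and STAT6 and TYK2 (both -1.28) are lowest.

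Depth and dynamic range moved with most features and with these genes. In limma fits with both terms, log2 library total was associated with 64.9% of features (30.5% higher and 34.3% lower with depth) and dynamic range with 79.9% (44.2% higher and 35.8% lower). For library total 5 of the 10 genes were called, with slopes per doubling of the total of 0.23 log2 CPM for JAK3, 0.21 for STAT5A, 0.20 for STAT6, 0.19 for TYK2 and -0.25 for STAT4 (limma adjusted p 1.38e-09 or lower for each). In the deeper 47 libraries 6 genes were called and not the same ones, since JAK3 was not called (limma adjusted p = 0.196) while JAK1, with a slope of -0.55 (limma adjusted p = 0.0427), and SOCS1, with 1.03 (limma adjusted p = 0.0261), were. There the slopes were 0.55 for STAT6, 0.38 for STAT5A, 0.31 for TYK2 and -0.58 for STAT4. The share of all features called in the deeper libraries was not computed, so the count of 6 has no background. JAK3, TYK2 and STAT6 each had their lowest value in the same library, of 4821011 counts, and STAT4 its lowest in the deepest, of 24325746 counts. JAK2 and STAT4 had their highest values in a library of 3871084 counts.

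For dynamic range all 10 genes were called. STAT4 fell by 1.59 log2 CPM per unit of dynamic range (limma adjusted p = 7.39e-16) and JAK1 fell by 0.60 (limma adjusted p = 0.008). The other 8 rose, by 0.88 for TYK2, 0.82 for SOCS1, 0.81 for STAT3, 0.69 for STAT6, 0.68 for STAT5A, 0.59 for JAK3, 0.47 for JAK2 and 0.36 for STAT5B. In the shallower 46 libraries 3 of the 10 were called. The share of all features called there was not computed, so a general loss of calls with fewer libraries cannot be told apart. The dynamic range is itself computed from the counts, and what sets it was not tested. By mean level JAK1, JAK2, TYK2 and STAT3 belong to the top quintile that defines it, and SOCS1 to the bottom quintile. The slopes of these genes are thus not independent of how the measure is made.

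Across lines, most of the genes varied with one another, as they did with much of the table. After removal of library total and dynamic range, 27 of the 45 pairs were called with limma in both directions, 17 with a positive and 10 with a negative correlation. The shares of all features that varied with a gene were 53.6% for JAK1, 54.6% for TYK2, 54.5% for STAT3, 46.8% for STAT4, 58% for STAT6, 54.1% for SOCS1, 33.2% for STAT5A, 23.9% for JAK3, 7.61% for STAT5B and 0.532% for JAK2. Against these, 7 of the 9 other genes were called with JAK1, TYK2, STAT3, STAT4, STAT5A, STAT6 and SOCS1 each, 6 with JAK3, 1 with STAT5B and 0 with JAK2. Like the shares, these counts and those by direction below come only from the fit on the named gene. They can exceed the number of called pairs of a gene, since a called pair has to pass in both fits. By direction, JAK1 had 2 genes higher (26.5% of features) and 5 lower (27.1%), JAK3 5 higher (10.6%) and 1 lower (13.3%), and TYK2 5 higher (30.9%) and 2 lower (23.7%). STAT3 had 5 higher (28%) and 2 lower (26.5%), STAT6 5 higher (31.1%) and 2 lower (26.9%), and SOCS1 5 higher (27.8%) and 2 lower (26.3%). STAT4 had 1 higher (21.4%) and 6 lower (25.4%), STAT5A 6 higher (15.8%) and 1 lower (17.4%), and STAT5B 1 higher (4.54%) and 0 lower (3.07%). Of all features 0.395% were higher and 0.137% lower with JAK2. The genes were grouped by what the correlations showed, so the groups are a description.

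The levels of JAK3, TYK2, STAT3, STAT5A, STAT6 and SOCS1 were positively correlated with one another. All 6 genes lie in rows 3201 to 7700, as does STAT5B. JAK1, STAT4 and JAK2 lie in the other stretches, with their higher median level and lower share of even values among low counts. The part of these stretches in the correlations was not tested. The 15 pairs of the 6 genes had Pearson's r between 0.27 and 0.69 with a median of 0.42 (n = 93), and all 15 were called. The highest was TYK2 with STAT6, at r = 0.69 and rho = 0.65 (limma adjusted p = 4.80e-11), and SOCS1 was at r = 0.58 with STAT6 (limma adjusted p = 7.93e-08) and at 0.55 with STAT3 (limma adjusted p = 2.26e-07). JAK1 and STAT4 went together, at r = 0.53 (limma adjusted p = 8.45e-07), and against the other 6, with r between -0.57 and -0.22 and 10 of 12 pairs called. STAT4 with STAT6 was at r = -0.57, STAT4 with TYK2 at -0.56, and JAK1 with SOCS1 and with STAT6 at -0.56 each. JAK1 with SOCS1 was at -0.68 in the shallower 46 libraries and at -0.26 in the deeper 47, where it was not called (limma adjusted p = 0.22). JAK2 and STAT5B stood outside both groups, with r between -0.23 and 0.30 over 17 pairs, of which STAT5A with STAT5B was called.

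With 10 principal components in place of the covariates, STAT3 with STAT5A was the only pair called. The 15 pairs of the 6 genes then had a median r of 0.07, between -0.12 and 0.56, and the 12 pairs against JAK1 and STAT4 had a median of 0.05. The share of features called with a gene was then 0.137% for JAK1, 0.0862% for STAT3, 0.0359% for JAK3, 0.0216% for STAT5A and for STAT5B, 0.0144% for JAK2 and 0% for the other 4. Principal components may hold both technical and line differences, and which of these the pattern holds was not tested. In the shallower 46 libraries 15 pairs were called and in the deeper 47 there were 9. The shares of all features called with each gene in these subsets were not computed. The lower counts therefore cannot be told apart from a general loss of calls with fewer libraries.

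**Figure D4:**
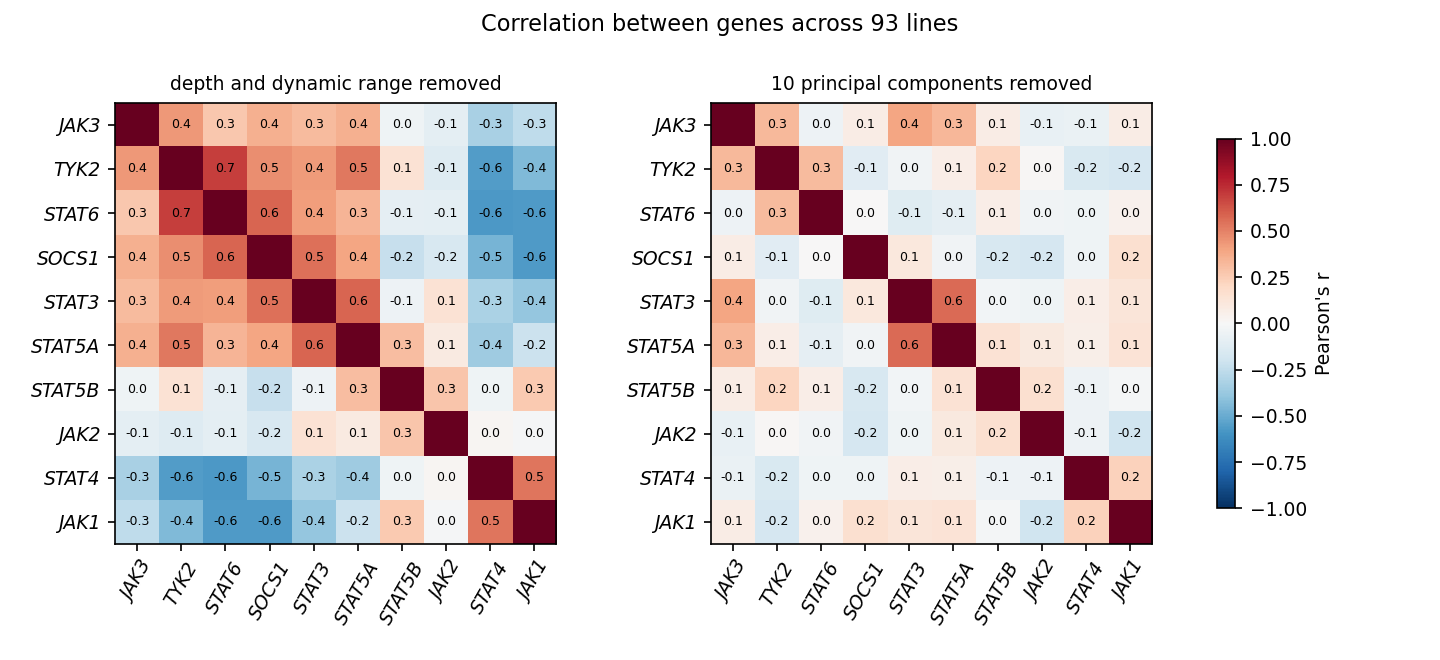
Pearson's r between the genes across 93 lines after removal of library total and dynamic range (left) and of 10 principal components (right), with red for positive and blue for negative values. The red block of 6 genes and the blue cells of STAT4 and JAK1 on the left fade on the right, where STAT3 with STAT5A keeps r = 0.56.

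STAT5B, STAT5A and STAT3 stand side by side on chromosome 17 and take 3 consecutive rows of the table. The RefSeq spans of STAT5B, on the minus strand, and STAT5A, on the plus strand, overlap by 932 bases at their starts, though the RefSeq start window of STAT5B, chr17:42276342-42276641, lies inside its span. The ends of STAT5A and STAT3, which is on the minus strand, face each other across 1380 bases. STAT3 and STAT5A had r = 0.58 and rho = 0.61 (limma adjusted p = 4.43e-07, permutation p = 1e-05, the smallest that 100000 draws can give), and r = 0.63 once the 2 most distant lines on STAT3 were left out and 0.56 once those on STAT5A were. It was 0.50 over the 46 shallower libraries, 0.60 over the 47 deeper ones and 0.58 with the deposited scores. With 10 principal components it was 0.56 (limma adjusted p = 0.000715).

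STAT5A and STAT5B had r = 0.30 and rho = 0.39 (limma adjusted p = 0.0477, permutation p = 0.00298), and r = 0.27 once the 2 most distant lines on STAT5A were left out and 0.32 once those on STAT5B were. This call was lost in the shallower (r = 0.26) and deeper libraries (r = 0.35), with DESeq2 size factors (r = 0.29) and with 10 components (r = 0.15). Settings that kept it included 5 components (r = 0.44), no covariates (r = 0.37), the deposited scores (r = 0.38) and removal of the 10 shallowest libraries (r = 0.41). STAT3 and STAT5B, 2 rows apart, had r = -0.05 (limma adjusted p = 0.821). The SD of the log2 ratio between lines was 0.24 for STAT5A over STAT5B, 0.28 for STAT3 over STAT5A and 0.37 for STAT3 over STAT5B.

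Adjacent rows of the table are alike in general. Over 13847 adjacent pairs r averaged 0.28 ± 0.29 (SD), and 15.9% reached the value of STAT3 with STAT5A and 44.7% that of STAT5A with STAT5B. Over rows 2 apart r averaged 0.17, and 20.2% were at or below the value of STAT3 with STAT5B. Rows 3000 apart averaged 0.00219. With 10 components adjacent rows averaged 0.22 ± 0.24 (SD) and 9.49% reached STAT3 with STAT5A. Adjacent or closely related genes can share reads, depending on counting rules not given in the sources used here.

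**Figure D5:**
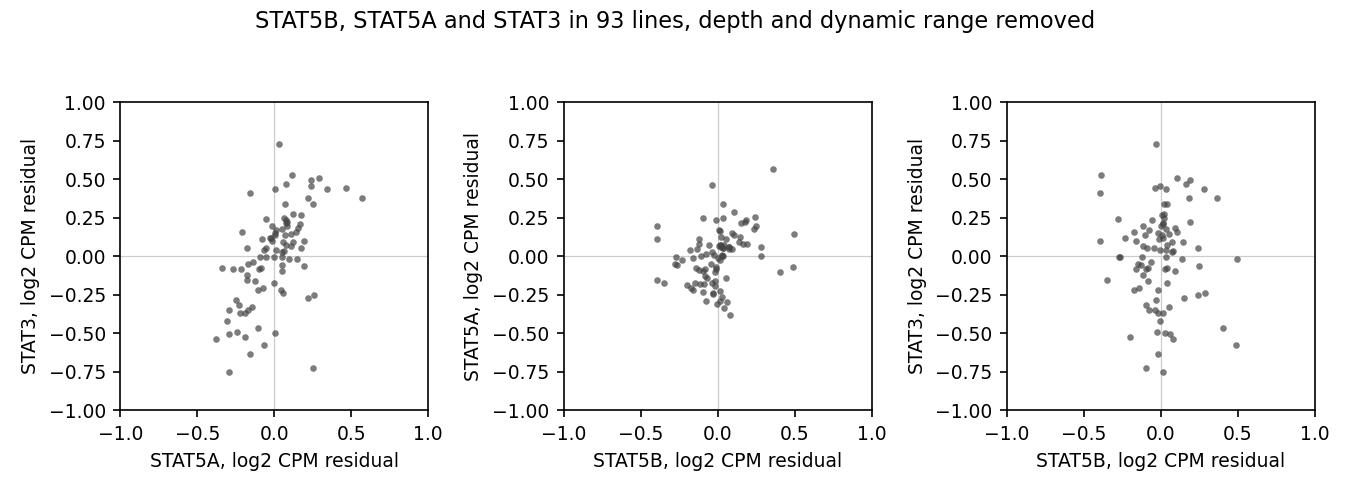
Residual log2 CPM of STAT3, STAT5A and STAT5B against each other, 1 point per line, after removal of library total and dynamic range. The cloud of STAT3 with STAT5A (r = 0.58) is tilted, that of STAT5A with STAT5B (r = 0.30) less, and that of STAT3 with STAT5B (r = -0.05) is tall and shows no tilt.

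With JAK2, 74 features were called, of which 2 lay within 10 rows, the rows on each side of it. With the row before it, r was 0.52 and rho 0.48 (limma adjusted p = 0.000679), and with the row after it, r was 0.50 and rho 0.47 (limma adjusted p = 0.00114). Once the 2 most distant lines were left out, r was 0.45 and 0.44. With 10 principal components r was 0.58 and 0.57 (limma adjusted p = 8.71e-05 each), and these 2 rows were the only ones called of 13914. Adjacent rows in general then averaged 0.22 ± 0.24 (SD), and 9.49% of them reached the 0.56 of STAT3 with STAT5A. Of the other genes, JAK1 had 19 features called with 10 components, none within 100 rows, STAT3 had 12, 2 of them within 100 rows, JAK3 had 5, and STAT5A and STAT5B had 3 each. TYK2, STAT4, STAT6 and SOCS1 had 0.

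Rows beside a gene did not always go with it. STAT6 was at r = 0.62 with the row before it and -0.46 with the row after it, and SOCS1 was at 0.54 and -0.30. TYK2 was at 0.69 and 0.54. With 10 components the values of STAT6 were 0.23 and 0.05, and those of TYK2 0.37 and 0.43.

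At 100 rows or more away, each gene had a feature with which it was most alike, at r between 0.52 for JAK2 (rho = 0.25, limma adjusted p = 0.000679) and 0.80 for STAT6. For STAT6 this was ENSG00000285043.1, with r = 0.80 and rho = 0.77 over 93 lines, and for STAT3 it was ENSG00000067225.18, with r = 0.78 and rho = 0.76. With 10 components the values were 0.35 and 0.37. The files do not pair these identifiers with names.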

How the data were processed

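H3K36me3 CUT&Tag counts of 93 lymphoblastoid lines were used. The deposited count table holds raw whole-number counts for 14000 features, and the authors' deposited score table holds scores of the same features. How the scores were made, the counted interval and any read filter were not given in the sources used here. Per the submitters' processing notes, the tools were HISAT2 2.2.1 and bedtools and the build was hg38, with no role stated. The 10 genes were matched to RefSeq by symbol, all 10 matching. The genes, the lists and the tests were chosen with earlier results of these data known. Pathway and marker lists were not used, since no identifier of another feature could be paired with a symbol.

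Counts were scaled with TMM (edgeR 4.0.16, R 4.3.3) to log2 CPM with a prior count of 2. Tests used the 13915 features with at least 10 counts in at least 47 lines and Benjamini-Hochberg adjustment at 0.05 over all of them. Covariates were log2 library total and dynamic range. Spread between lines was tested with the edgeR goodness-of-fit test, and covariation and depth with limma 3.58.1, a pair being called where both directions pass. Named features were the 10 genes and the most alike feature at least 100 rows away, of which 2 identifiers are printed. Scripts were tested on simulated data. Other settings tried were size factors or dispersion outliers from DESeq2 1.42.0, a prior of 0.5, no filter, other covariates, subsets of libraries by depth, Spearman correlation and the deposited scores. p-values measure the spread between single libraries of lines, which may be technical in part, and counting error is only one part of it.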

Additional observations from a re-analysis of the deposited data

How the results depend on the processing

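Results were computed again under 14 kinds of alternative, and 360 values kept their direction, call or size. With their sign kept, 42 lost a call and 4 gained one, while 14 changed sign and 15 others moved. Values that changed sign and also lost a call, such as JAK1 with SOCS1 with 5 components, are counted only among the 14. No paired analysis was possible because the libraries form a single group. The correlation of STAT5A with STAT5B was not called with DESeq2 size factors (0.295), in the shallower (0.257) or deeper libraries (0.351), or with 10 components (0.146). It was called with 5 components (0.437), no covariates (0.370), the deposited scores (0.380) and without the 10 shallowest libraries (0.411), among others. The number of pairs called was 15 and 9 in the shallower and deeper libraries and 2 and 1 with 5 and 10 components. Genes called with dynamic range numbered 3 in the shallower libraries. For these counts of pairs and genes, shares of all features were not computed in the subsets or with 5 components. Genes called for spread numbered 1 with no covariates, 1 with 10 components and 0 among DESeq2 dispersion outliers, which numbered 242 in all, against 1993 to 3159 features under the other alternatives. STAT3 with STAT5B turned to 0.0626 with no covariates and 0.149 with 5 components.

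The slope of JAK2 on library total turned to -0.00254 with DESeq2 size factors, -0.00298 without the 10 shallowest libraries and -0.383 in the deeper ones, and that of SOCS1 to -0.0136 without the 10 shallowest. Spread ratios turned to -0.15 and -0.207 for JAK2 (without the 10 shallowest, no covariates), 0.262 for STAT4 (no covariates) and 0.00944 and 0.0372 for JAK3 (5 and 10 components). JAK1 with SOCS1 turned to 0.0778 and 0.157 with 5 and 10 components, and JAK1 with STAT6 to 0.042 with 10. With 50 rows on each side, chosen after seeing the data, the levels against neighbours were 2.97 for STAT3, 1.96 for STAT5A and 2.0 for STAT5B. With the median of 100 rows on each side removed, also chosen then, the SD between lines was 0.57 for SOCS1, 0.33 for JAK1 and 0.32 for STAT3, against 0.55, 0.32 and 0.33 in log2 CPM. The causes of these changes were not tested. Scaling by length against all features was not run, since lengths could not be paired with identifiers, and no filter was not run for levels, which use all features. Depth limits SOCS1 most, with a median count of 46.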
